A study of Glycine max with 24 samples.

Results

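The ubiquitin system of developing soybean (Glycine max) seed was followed through 64 probesets of the Affymetrix Soy GeneChip, of 37763 in the deposited table and 37593 soybean probesets tested. A member is a probeset whose description in the lists that accompany the study holds ubiquitin, SMT3, SUMO, RING, F-box or proteasome. The words were found in the shared description columns for 55 members and in further annotation columns alone for 9, and 3 probesets in which the letters RING stand only inside another word were left out. Descriptions could be read for 1802 probesets, and the LoPro lists and the lists of shared decreases were read more fully than the others, so the 64 are not all ubiquitin system transcripts on the array. By their descriptions, 1 member is an E1 activating enzyme, 8 are E2 conjugating enzymes, 3 are ubiquitin-like modifiers, 2 are deubiquitinases, 2 are a HECT ligase and a cullin, 22 are RING proteins, 14 are F-box proteins, 5 are proteasome proteins and 7 are other proteins that carry one of the words.

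The study set a pair of near-isogenic lines side by side. LoPro has a Glycine max background, and HiPro carries in that background a high-protein allele from Glycine soja PI468916. Both were grown in growth chambers in soil with fertilizer and a Bradyrhizobium inoculant. Each line stands for the allele through 1 pair of related lines, so other introgressed sequence cannot be told apart from it. Seed was taken at 4 fresh weights, called stage 1 (25 to 50 mg), stage 2 (up to 100 mg), stage 3 (up to 200 mg) and stage 4 (up to 300 mg), with 3 arrays for each line and stage and 24 arrays in all. A replicate is a pool of seed from several plants, sampled at every stage. RNA came from whole seed, so fewer cells of a type and less RNA per cell cannot be told apart.

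Ubiquitin is a small protein that is joined to other proteins in a chain of steps. An E1 enzyme activates it, an E2 enzyme carries it, and an E3 ligase, often a RING, HECT or cullin and F-box protein, brings the E2 and the substrate together. Proteins tagged with ubiquitin chains are degraded by the 26S proteasome, and deubiquitinases remove the tag. During seed filling, cotyledon cells stop dividing and accumulate storage protein and oil.

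The values are MAS5 signals, a measure of hybridisation in arbitrary units whose level can be compared between arrays for 1 probeset but not between probesets. Array medians lay between 198.6 and 228.5, and replicate arrays correlated at 0.941 to 0.966 on the log2 scale. As a check of the tissue, the summed signal of 10 seed storage protein probesets rose from 49728 to 106830 at stage 1 to 153475 to 169024 at stage 4 in LoPro and from 46578 to 55335 to 162871 to 204308 in HiPro. The sum is weighted to the brightest probesets. A dim CG-1 probeset went the other way, with log2 changes of −2.05 in LoPro and −0.89 in HiPro. A GY1 probeset gave −0.02 in LoPro and 0.56 in HiPro, and the other changes were positive in both lines. The summed signal of 5 probesets for the chlorophyll a/b-binding protein gene CAB3, which green seed also expresses, was 35268 to 41516 and 22474 to 28720 in LoPro at those stages, and 28542 to 33060 and 27741 to 32761 in HiPro. No probeset with the single symbol of a leghemoglobin, the marker of root nodules, was found. The LoPro stage 1 arrays differed among themselves in the beta-conglycinin transcript CG-BETA-1, at signals of 2416, 332 and 6.28 for replicates 1, 2 and 3, while the HiPro stage 1 arrays lay between 7.67 and 17.3. Values that rest on LoPro stage 1 replicate 1 are therefore given without it where it matters. The LoPro stage 2 arrays were uneven as well, at 2720, 10711 and 685, against 1151 to 2265.5 in HiPro. LoPro steps to and from stage 2 carry that limit.

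Most of the 64 members, which were drawn from lists of changed transcripts, accumulated across seed filling and 9 fell in both lines. From stage 1 to stage 4, 42 of 64 members increased and 9 decreased in LoPro, and 45 increased and 9 decreased in HiPro, at an adjusted p under 0.05 (limma, Benjamini-Hochberg over all soybean probesets) and a change of at least 1.5-fold. Over all probesets tested, 11.2% increased and 10.5% decreased in LoPro, and 10.6% increased and 13.6% decreased in HiPro. The methods' t-test on the same values called 25 increased in LoPro. The increased share of all called probesets in HiPro was 43.9%, and 58.1% when each array was centred on its median. The median log2 change of the members was 0.79 in each line, against 0.08 over all probesets in LoPro and −0.01 in HiPro. The members came from lists the study had chosen on these same arrays for a change between stage 1 and stages 3 or 4. The stage counts are thus a description, and nothing is read from their distance to the shares of all probesets. The same holds for single members below. Their adjusted p between stages, and stages that do not overlap, describe a change for which the members were chosen. They are not an independent test of it.

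The change from stage 1 to 4 had the same sign in both lines for all 64 members, positive for 55. Both lines passed for 39 increased and 9 decreased members, beside 7.44% and 8.72% of all probesets. The same shares stand beside the counts of single classes below, from which nothing is read. Of the members, 21 came from the study's list of shared increases, 7 from that of shared decreases and 3 from lists of both lines, so that likeness of the lines was built into the choice for these and nothing is read from it. A further 3 members passed in LoPro alone, 6 in HiPro alone and 7 in neither, and 0 passed in opposite directions. Stage 1 and stage 4 arrays did not overlap for 61 members in each line, and all 3 pools moved the same way for 63 members in LoPro and 62 in HiPro. Neither these counts nor that of changes of the same sign were made over all probesets. Since the members were chosen for a change on these same arrays, nothing is read from them.

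**Figure D1:**
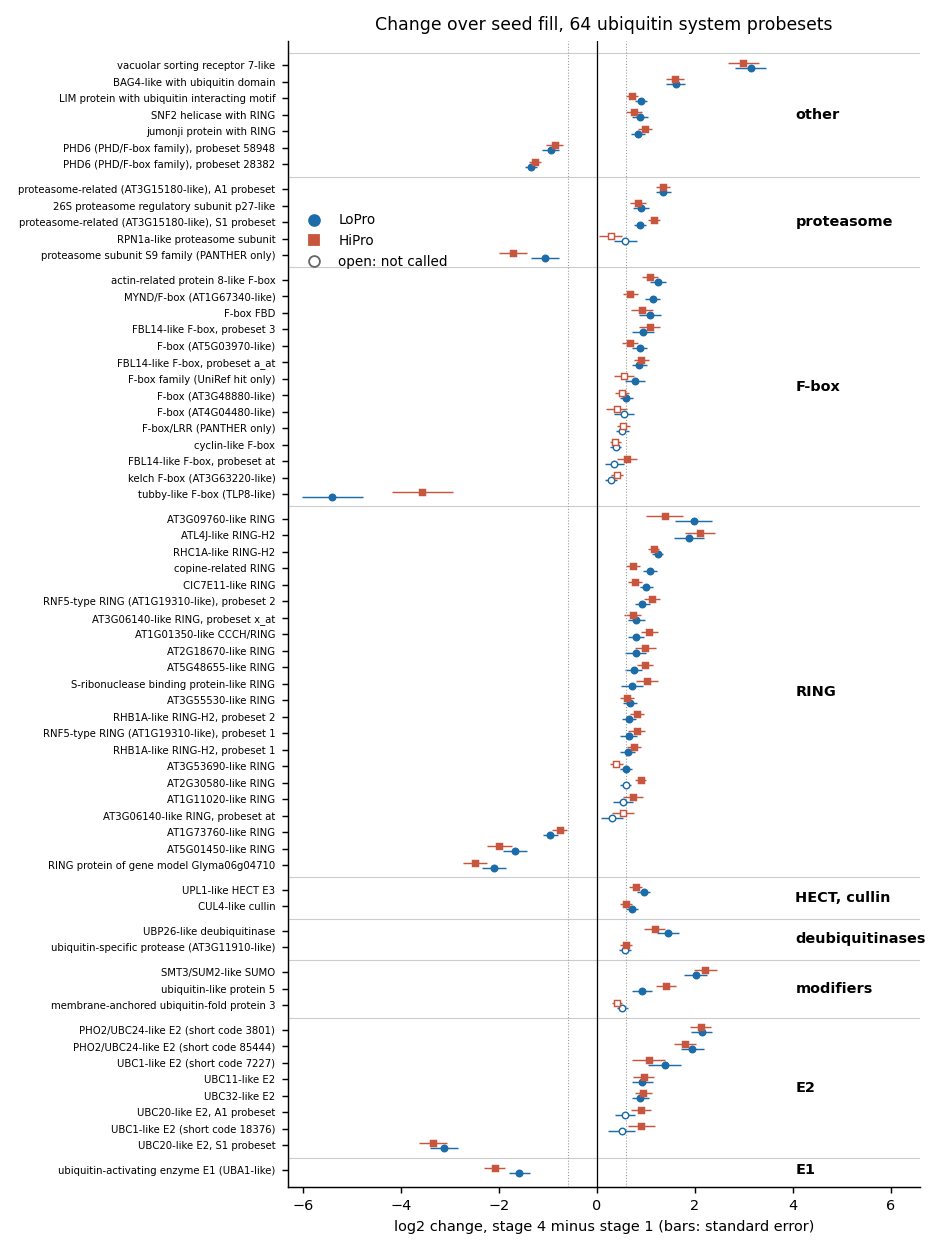
Log2 change from stage 1 to stage 4 (horizontal axis) of each of the 64 members, grouped by class, in LoPro (circles) and HiPro (squares), with bars of 1 SE, dotted lines at 1.5-fold and open symbols where the change was not called. Most members of each larger class lie to the right of 0, the class medians of RING proteins being 0.70 in LoPro and 0.79 in HiPro, and the tubby-like F-box member lies farthest to the left at −5.40 and −3.56.

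The E1 enzyme, the entry point of the pathway, went against the majority. The E1 probeset, similar to Arabidopsis UBA1 and placed by the study's annotation in gene model Glyma18g06620, gave LoPro signals of 373.5, 264.5 and 324.2 at stage 1 and 106, 84.32 and 132.2 at stage 4. Its HiPro signals were 413.5, 444 and 374.6 at stage 1 and 111.1, 97.23 and 82.71 at stage 4. All stage 4 arrays lay below all stage 1 arrays in both lines. The log2 change was −1.59 (SE 0.21, adjusted p = 1.25e-05) in LoPro and −2.09 (SE 0.21, adjusted p = 4.01e-07) in HiPro. In LoPro the stage 2 signals of 346, 242.1 and 358 overlapped those of stage 1, and the transcript then fell by 1.22 on the log2 scale between stages 2 and 3 (adjusted p = 0.00116). In HiPro the stage 2 signals of 257 to 317.8 lay below those of stage 1, a log2 difference of −0.55 that did not pass (adjusted p = 0.245). It is the single E1 probeset among the members, and other E1 genes were not analysed here.

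Among the 8 E2 probesets, which pass activated ubiquitin on, 5 increased and 1 decreased in both lines, beside 7.44% and 8.72% of all probesets. A further 2 passed in HiPro alone. The median log2 change of the 8 was 0.91 in LoPro and 0.95 in HiPro. The largest increases were those of 2 probesets described as similar to PHO2 (UBC24), the E2 that in Arabidopsis limits phosphate uptake and transport. The first of them gave 256.2, 313 and 349.2 at stage 1 and 1407, 1341 and 1260 at stage 4 in LoPro, and 282.7, 506.3 and 283.6 at stage 1 and 1742, 1295 and 1473 at stage 4 in HiPro. Every stage 4 array was more than 2-fold above every stage 1 array of its line. The log2 changes were 2.14 (SE 0.21, adjusted p = 3.17e-07) and 2.12 (SE 0.21, adjusted p = 2.83e-07). The other PHO2-like probeset went from 162.2, 283.3 and 189.3 to 832.2, 814.1 and 740.1 in LoPro and from 205.8, 298.6 and 220.7 to 1092, 707.8 and 733.8 in HiPro. Its stages did not overlap either, and it changed by 1.95 (SE 0.23) and 1.80 (SE 0.23) on the log2 scale, with adjusted p of 2.01e-06 and 4.19e-06. Whether the 2 probesets read 1 gene or several is not given in the sources used here, so they may share a transcript.

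The single E2 transcript that fell is of the type that works in the cell cycle. Its probeset, called S1 here after its array code, is described as a cyclin-specific E2 similar to Arabidopsis UBC20, which belongs to the E2-C group that in animals and yeasts serves the anaphase-promoting complex in cyclin destruction. In LoPro it read 1405, 1182 and 2169 at stage 1, 673.5, 656.1 and 1034 at stage 2, 359.5, 255.8 and 161.5 at stage 3 and 204.3, 218.4 and 121.6 at stage 4. In HiPro the same series was 1613, 2323 and 2564, then 885.1, 941.6 and 1184, then 347.2, 343.3 and 451, then 225.9, 178 and 229.8. No 2 consecutive stages overlapped in either line up to stage 3, and stage 4 overlapped stage 3 in LoPro alone. The log2 change from stage 1 to 4 was −3.13 (SE 0.28, adjusted p = 1.22e-07) in LoPro and −3.34 (SE 0.28, adjusted p = 4.44e-08) in HiPro.

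A second probeset with the same array code, of the A1 type, did not follow it. Its LoPro signals were 906.6, 470.9 and 530.4 at stage 1 and 993.4, 865.6 and 872.7 at stage 4, so that replicate 1 of stage 1 overlapped stage 4. In HiPro it read 491.1, 533.8 and 481.4 at stage 1 and 1004, 923.4 and 882.2 at stage 4, without overlap. The log2 change was 0.58 (SE 0.21, adjusted p = 0.0455) in LoPro, below the 1.5-fold threshold, and 0.90 (SE 0.21, adjusted p = 0.00251) in HiPro. Without LoPro stage 1 replicate 1, which also had the high storage transcript, the LoPro change was 0.86 and passed. The study's annotation places the S1 probeset in Glyma11g10140 and the A1 probeset in Glyma12g34570, although both carry the UBC20 description, so the gene read by the A1 probeset is not settled here.

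The remaining E2 members are similar to UBC32, UBC11 and UBC1. The UBC32-like probeset, whose Arabidopsis counterpart acts in the degradation of proteins from the endoplasmic reticulum, rose from 729.5, 766.2 and 773.8 to 1837, 1341 and 1112 in LoPro and from 755, 678.7 and 703.6 to 1521, 1290 and 1303 in HiPro. The stages did not overlap in either line, and the log2 changes were 0.89 (SE 0.17, adjusted p = 6.00e-04) and 0.94 (SE 0.17, adjusted p = 2.85e-04). The UBC11-like probeset rose by 0.93 (SE 0.21) in LoPro and 0.95 (SE 0.21) in HiPro on the log2 scale. UBC1 in Arabidopsis places single ubiquitins on histone H2B. The UBC1-like probeset read 154.7, 124.9 and 52.88 at stage 1 and 302.9, 244.7 and 243.4 at stage 4 in LoPro, and 105.6, 142 and 105.8 against 242.3, 269.8 and 216.9 in HiPro. It changed by 1.38 (SE 0.34, adjusted p = 0.0039) and 1.05 (SE 0.34, adjusted p = 0.0208) on the log2 scale, and the HiPro call was lost in 6 of the 30 settings that left out arrays. A second UBC1-like probeset gave log2 values of 0.51 (adjusted p = 0.188) in LoPro, where the stages overlapped, and 0.91 (adjusted p = 0.0161) in HiPro, a call lost in 4 of those settings.

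Of 3 modifiers related to ubiquitin, 2 increased in both lines and 1 was not called. The larger increase was that of SUMO, a small protein that is attached to substrates by its own enzymes and seldom marks them for degradation. The probeset described as SMT3, similar to Arabidopsis SUM2, gave 573.9, 534.4 and 389.6 at stage 1 and 1748, 1994 and 2257 at stage 4 in LoPro, and 502.7, 369 and 349.1 at stage 1 and 1691, 2013 and 1894 at stage 4 in HiPro. All 6 stage 4 arrays were higher than any stage 1 array. The log2 changes were 2.01 (SE 0.23, adjusted p = 1.84e-06) and 2.21 (SE 0.23, adjusted p = 4.70e-07), and stage 3 was already 1.57 and 1.80 above stage 1 on that scale. Ubiquitin-like protein 5, whose yeast counterpart Hub1 acts in splicing, read 534.2, 467.2 and 488 at stage 1 and 945.8, 1088 and 810.4 at stage 4 in LoPro, and 332.3, 286.7 and 375.6 against 930.1, 925.9 and 771.7 in HiPro. Its stage 1 arrays were lower in HiPro than in LoPro without overlap, a log2 difference of −0.59 that did not pass over all probesets (unadjusted p = 0.00795, adjusted p = 0.999). The changes from stage 1 to 4 were 0.93 (SE 0.20, adjusted p = 0.00151) and 1.41 (SE 0.20, adjusted p = 1.84e-05). Membrane-anchored ubiquitin-fold protein 3, which sits at the plasma membrane in Arabidopsis, stayed under the 1.5-fold threshold, with log2 values of 0.52 (adjusted p = 6.19e-04) in LoPro and 0.41 (adjusted p = 0.00411) in HiPro. It passed in LoPro without LoPro stage 1 replicate 1, at 0.65.

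**Figure D2:**
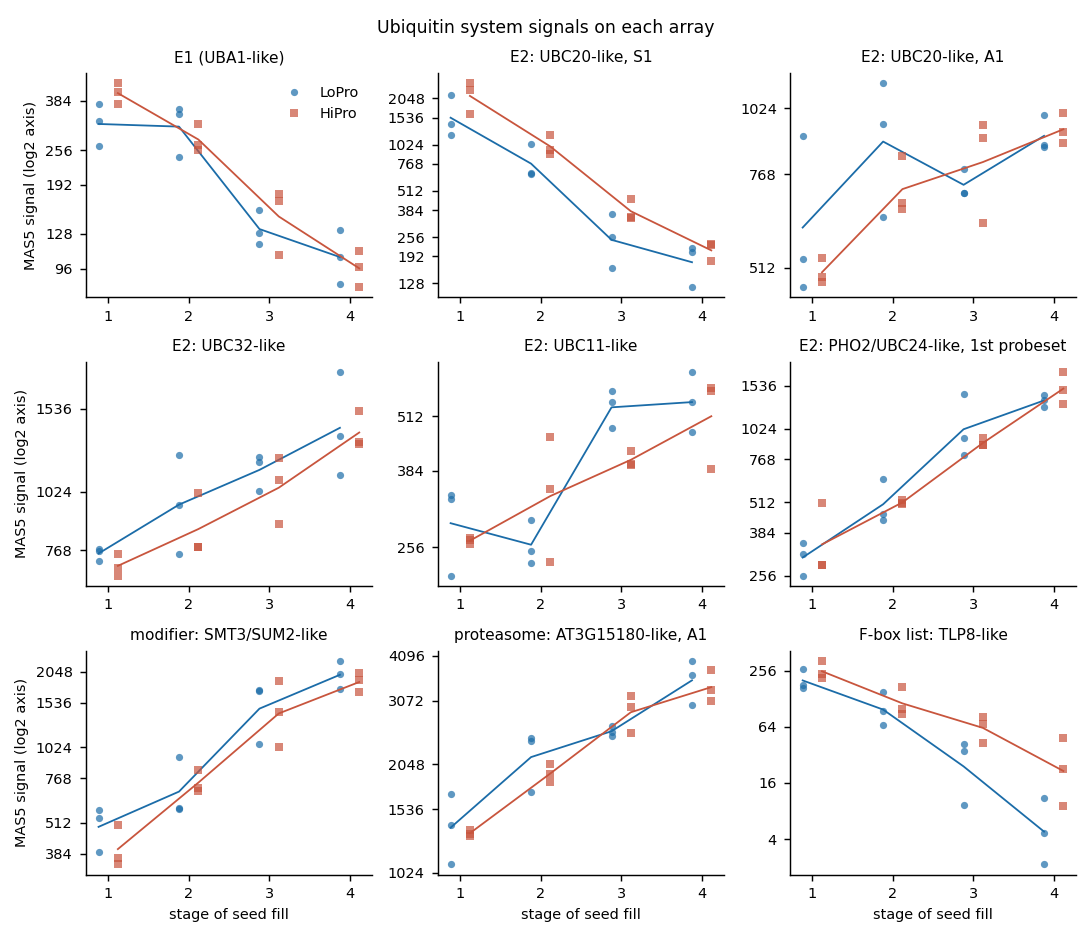
MAS5 signal (vertical axes, arbitrary units on log2-spaced scales that differ between panels) of single members in each of the 24 arrays, by stage (horizontal axes), with LoPro and HiPro as separate symbols and lines through the group means of log2 signal. The E1 and the UBC20-like S1 probeset decline in both lines, the PHO2-like and SUMO probesets climb from stage 1 to stage 4, and the tubby-like probeset drops to signals between 2.135 and 48.45 at stage 4.

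Deubiquitinases, which reverse the reaction, were represented by 2 probesets. The UBP26-like probeset, whose Arabidopsis counterpart removes ubiquitin from histone H2B, gave 188.8, 202.7 and 266.6 at stage 1 and 596.6, 645.3 and 542.1 at stage 4 in LoPro. In HiPro it gave 204.2, 274.5 and 199.1 at stage 1 and 509.4, 429.9 and 593.6 at stage 4. The stages did not overlap in either line, and the log2 changes were 1.45 (SE 0.22, adjusted p = 3.70e-05) and 1.18 (SE 0.22, adjusted p = 2.67e-04). The ubiquitin-specific protease probeset had values on either side of the 1.5-fold threshold, with log2 changes of 0.57 (SE 0.12, adjusted p = 0.00131) in LoPro, not called, and 0.59 (SE 0.12, adjusted p = 7.09e-04) in HiPro, a call lost in 5 of 30 settings without arrays or pools. Between the lines its changes differed by 0.03 on the log2 scale, with a 95% interval from −0.33 to 0.38. It is an x_at probeset, which may cross-hybridise.

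The HECT ligase and the cullin both increased in both lines. The UPL1-like probeset, for a HECT ligase that forms a thioester with ubiquitin itself, read 760, 766.9 and 806 at stage 1 and 1600, 1583 and 1341 at stage 4 in LoPro, and 855.7, 804.2 and 914 against 1678, 1285 and 1523 in HiPro. All stage 4 arrays were above those of stage 1, with log2 changes of 0.95 (SE 0.13, adjusted p = 1.35e-05) and 0.79 (SE 0.13, adjusted p = 8.04e-05). The CUL4-like probeset, for the scaffold that joins DDB1 to a RING protein, rose by 0.71 (SE 0.12, adjusted p = 1.55e-04) in LoPro and 0.59 (SE 0.12, adjusted p = 8.08e-04) in HiPro. The HiPro value stood just above the threshold, and the call was lost in 4 of 30 settings without single arrays or pools.

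RING proteins were the largest class. Of 22 probesets, 15 increased and 3 decreased in both lines, beside 7.44% and 8.72% of all probesets. The median log2 changes of the class were 0.70 in LoPro and 0.79 in HiPro, against 0.08 and −0.01 over all probesets. By the mean change of both lines, the 4 largest increases called in both were those of ATL4J-like, AT3G09760-like, RHC1A-like and RNF5-type probesets. The ATL4J-like RING-H2 probeset read 35.35, 46.7 and 23.6 at stage 1 and 107.8, 134.2 and 132.6 at stage 4 in LoPro, and 39.06, 27.1 and 30.53 against 105.6, 173.9 and 138.1 in HiPro. Stage 4 lay above stage 1 on every array, and the log2 changes were 1.87 (SE 0.31, adjusted p = 1.10e-04) and 2.10 (SE 0.31, adjusted p = 2.65e-05). Its mean signal stood at the 27.4th percentile of all probesets. The AT3G09760-like probeset was dimmer still, at the 14.9th percentile, with stage 1 signals of 15.16, 8.856 and 11.37 and stage 4 signals of 39.58, 40.95 and 57.01 in LoPro. In HiPro these were 13.86, 20.52 and 25.04 and then 42.03, 69.84 and 42.85. The stages were apart in both lines, with log2 changes of 1.97 (SE 0.38, adjusted p = 4.76e-04) and 1.38 (SE 0.38, adjusted p = 0.00763), and the HiPro call was lost without pool 1 or pool 2.

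The RHC1A-like RING-H2 probeset gave 1680, 1769 and 1215 at stage 1 and 3657, 3598 and 3599 at stage 4 in LoPro, and 1623, 1434 and 1610 against 3546, 3406 and 3460 in HiPro. Stage 4 was at about the same signal on all 6 arrays, far from any stage 1 array, and the log2 changes were 1.24 (SE 0.11, adjusted p = 1.05e-07) and 1.16 (SE 0.11, adjusted p = 1.66e-07). In animals, RNF5 is a RING ligase of the endoplasmic reticulum. The second RNF5-type probeset rose by 0.93 (SE 0.15) in LoPro and 1.12 (SE 0.15) in HiPro, and the first probeset of that gene model, Glyma04g03680, by 0.65 (SE 0.17) and 0.81 (SE 0.17), its LoPro call being lost in 2 of 30 settings without arrays or pools. Both probesets of the RHB1A-like code also rose, with LoPro changes of 0.63 and 0.66 and HiPro changes of 0.76 and 0.82, and the LoPro calls were lost in 3 and 2 such settings. For the AT3G06140-like code, the x_at probeset, which may cross-hybridise, rose by 0.80 and 0.73, with each call lost in 1 setting, while the unique probeset gave 0.31 (adjusted p = 0.33) and 0.53 (adjusted p = 0.0828).

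The 3 RING transcripts that fell in both lines were those of gene model Glyma06g04710, an AT5G01450-like and an AT1G73760-like protein. The Glyma06g04710 probeset read 643.8, 506.7 and 645.2 at stage 1 and 137.6, 138.2 and 139.6 at stage 4 in LoPro, and 806.6, 701 and 703.1 against 152.4, 118 and 127.2 in HiPro. Every stage 4 array lay far below every stage 1 array of its line. The log2 changes were −2.10 (SE 0.24, adjusted p = 1.98e-06) and −2.48 (SE 0.24, adjusted p = 2.28e-07). The AT5G01450-like probeset went from 449.6, 381.4 and 580.2 to 116.6, 160.4 and 164.9 in LoPro and from 492.2, 559.1 and 528.1 to 116.9, 186.7 and 106.9 in HiPro. It was low from stage 3 on, and changed by −1.67 (SE 0.25, adjusted p = 4.22e-05) and −1.99 (SE 0.25, adjusted p = 4.70e-06). The AT1G73760-like probeset (LOC100819907) changed by −0.95 (SE 0.15) and −0.76 (SE 0.15) on the log2 scale.

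F-box proteins are the subunits that choose substrates for cullin ligases. Of 14 probesets, 6 increased and 1 decreased in both lines, beside 7.44% and 8.72% of all probesets. The median log2 change of the class was 0.69 in LoPro and 0.58 in HiPro. The probeset similar to actin-related protein 8 read 250.2, 219.2 and 196.2 at stage 1 and 537.2, 641.9 and 418.5 at stage 4 in LoPro, and 227.9, 220 and 232.8 against 474.6, 451.8 and 523 in HiPro. It rose without overlap, by 1.25 (SE 0.17, adjusted p = 1.15e-05) and 1.09 (SE 0.17, adjusted p = 4.44e-05) on the log2 scale. The FBD-type probeset rose by 1.08 (SE 0.22) and 0.93 (SE 0.22), and the MYND-type probeset by 1.14 (SE 0.16) and 0.69 (SE 0.16). The 3 probesets of the FBL14-like gene model Glyma15g00720 did not all pass. The a_at probeset rose by 0.87 and 0.91, the third probeset by 0.94 and 1.07, and the at probeset gave 0.35 (adjusted p = 0.189) in LoPro and 0.61 (adjusted p = 0.0198) in HiPro, a call lost in 4 settings without single arrays or pools.

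The member with the widest range was the tubby-like probeset of Glyma13g44890. Tubby-like proteins of plants carry a lipid-binding tubby domain and often an F-box. The F-box word comes from its Medicago description, while its Arabidopsis description, TLP8, does not name one. LoPro signals were 180.4, 170 and 271.3 at stage 1, 95.06, 66.58 and 150.9 at stage 2, 42.3, 35.53 and 9.342 at stage 3 and 4.675, 11.08 and 2.135 at stage 4. HiPro signals were 212.6, 327.9 and 235.5, then 87.92, 99.54 and 173, then 42.71, 69.21 and 82.96, then 9.041, 22.8 and 48.45. Every stage 4 array lay far below stage 1, and the lines overlapped at each stage except stage 3, where all HiPro arrays were higher. The log2 change was −5.40 (SE 0.62, adjusted p = 1.84e-06) in LoPro and −3.56 (SE 0.62, adjusted p = 1.58e-04) in HiPro. Of the stage 4 arrays, 3 in LoPro and 1 in HiPro were under the 10th percentile of signal, where MAS5 values scatter most. With signals below that level set to it, the changes were −3.79 and −3.33.

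The proteasome members were 5 probesets, of which 3 increased and 1 decreased in both lines, beside 7.44% and 8.72% of all probesets. Assembly or regulation of the proteasome is the role of the counterparts of the RPN1a-like and p27-like members, and no description names the proteolytic core. For AT3G15180-like proteins, described as proteasome-related, the first probeset gave 1693, 1390 and 1079 at stage 1 and 3957, 3612 and 2992 at stage 4 in LoPro, and 1297, 1344 and 1310 against 3731, 3059 and 3289 in HiPro. Its stages did not overlap, and the log2 changes were 1.36 (SE 0.15, adjusted p = 1.28e-06) and 1.35 (SE 0.15, adjusted p = 1.08e-06). The second probeset of that code rose by 0.87 (SE 0.12) and 1.16 (SE 0.12). The p27-like probeset, whose mammalian counterpart is a chaperone of proteasome assembly, went from 1040, 793.6 and 813.8 to 1766, 1662 and 1501 in LoPro and from 909.6, 985.7 and 738 to 1770, 1579 and 1360 in HiPro. It rose without overlap, by 0.90 (SE 0.17, adjusted p = 3.30e-04) and 0.84 (SE 0.17, adjusted p = 5.59e-04).

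RPN1a, a scaffold of the regulatory particle, did not pass. The RPN1a-like probeset read 163.6, 205.1 and 184.4 at stage 1 and 292, 270.2 and 264 at stage 4 in LoPro, and 173.6, 185.7 and 204.6 against 346.2, 237.6 and 143.4 in HiPro. HiPro stage 4 replicate 3 was below all stage 1 arrays of its line and the other stage 4 arrays were above them. The log2 values were 0.58 (SE 0.23, adjusted p = 0.0612) and 0.28 (SE 0.23, adjusted p = 0.389), and without that array the HiPro value was 0.68 and passed. The S9-family probeset fell, from 390.8, 397.5 and 377.6 to 172.8, 172.6 and 215.1 in LoPro and from 349.8, 439.2 and 440.2 to 160.5, 161.7 and 74.92 in HiPro. The log2 changes were −1.06 (SE 0.29, adjusted p = 0.00828) and −1.71 (SE 0.29, adjusted p = 1.18e-04). The LoPro call was lost without pool 1 or pool 2. Its proteasome word comes from a protein family alone, and its other descriptions name the COP9 signalosome and a hydrolase, so it is not settled as a proteasome subunit.

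The 7 other members carry one of the words without being known parts of the pathway. Of them, 5 increased and 2 decreased in both lines, beside 7.44% and 8.72% of all probesets. Both that decreased are probesets of PHD6, a protein with a PHD finger matched through the family name PHD/F-box, with log2 changes of −1.34 (SE 0.12) in LoPro and −1.27 (SE 0.12) in HiPro for the first and −0.94 and −0.86 for the second. The largest increase of all 64 members, named after its values were seen, was that of the vacuolar sorting receptor 7-like probeset, which read 68.35, 141 and 50.85 at stage 1 and 868.9, 700.6 and 549.4 at stage 4 in LoPro, and 58.38, 78 and 84.33 against 671.3, 680.2 and 421.8 in HiPro. It changed by 3.14 (SE 0.32, adjusted p = 4.33e-07) and 2.99 (SE 0.32, adjusted p = 6.01e-07) on the log2 scale. Receptors of this family carry proteins to the vacuole, and this one came in through the word RING in a family annotation.

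Part of these changes was in place by stage 3. Stage 3 against stage 1 called 30 increased and 9 decreased members in LoPro, where 7.48% and 7.35% of all probesets passed. In HiPro it called 21 and 8, against 5.87% and 7.92% of all probesets. Of these, 17 increased and 8 decreased in both lines, beside 3.9% and 5.26% of all probesets. The HiPro count of 21 was 34 with quantile normalization and 35 with each array centred on its median, while the methods' t-test called 6 as increased in HiPro, and in LoPro 2 as increased and 0 as decreased.

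Few members passed between stages 1 and 2. In LoPro 2 did, where 0.428% of all probesets passed in either direction, and in HiPro 1 did, where 1% passed. Named after their values were seen, these were a BAG4-like probeset, for a co-chaperone of Hsp70 with a ubiquitin domain, which rose by 0.93 (SE 0.18, adjusted p = 0.0267) in LoPro and 0.98 (SE 0.18, adjusted p = 0.0104) in HiPro, and an AT4G04480-like F-box probeset in LoPro. The latter stood out by its course in LoPro, with 224.8, 195 and 219.8 at stage 1, 462.3, 461.7 and 310.7 at stage 2, and 211.9, 273 and 269.1 at stage 3. On the log2 scale it rose by 0.93 (SE 0.21, adjusted p = 0.0489) and then fell by 0.70 (SE 0.21, adjusted p = 0.0303). In HiPro the stage 2 signals were 231.2, 237.7 and 336.8 and overlapped both neighbours, but the difference of the lines at stage 2, −0.61, did not pass (adjusted p = 0.936).

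From stage 2 to 3, 13 members increased and 6 decreased in LoPro, where 4.7% and 4.41% of all probesets passed, and 6 increased and 5 decreased in HiPro, where 1.12% and 1.64% passed. From stage 3 to 4, 0 members passed in either line, while 0.17% of all probesets did in LoPro and 0.513% in HiPro. Of the 9 members that fell in both lines, the step from stage 2 to 3 was the largest of the 3 steps for 7 in LoPro and 8 in HiPro, with a median log2 step of −0.99 and −0.88. For the 39 that rose in both lines it was the largest for 23 in LoPro and 17 in HiPro, and the median steps were 0.30, 0.42 and 0.21 in LoPro and 0.24, 0.41 and 0.33 in HiPro. Counts of the largest step were not made over all probesets, and nothing is read from them. Among all probesets, too, more passed from stage 2 to 3 than from stage 3 to 4 in each line. The stages span unequal ranges of seed weight, and the order of the steps was not tested.

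The comparison of the lines asks whether the high-protein allele goes with a different level of these transcripts. Of the members, 26 came from the LoPro stage 4 list and 5 from the LoPro stage 3 list, against 2 from the HiPro list. The LoPro arrays behind that choice enter the differences between lines, which are therefore not free of it. The study's list of transcripts that differ between the lines was searched as well. At single stages 0 of 64 members passed, where 0.016% of all probesets passed at stage 1, 0.0133% at stage 2, 0.0346% at stage 3 and 0.0612% at stage 4. The mean difference over the 4 stages called 0 members and 0.0984% of all probesets, and an F test over the 4 differences called 0 members at an adjusted p under 0.05, and 0.0718% of all probesets. The change from stage 1 to 4 differed between the lines for 0 members and 0% of all probesets, and so did the change from stage 1 to 3, with 0%. At an unadjusted p under 0.05, limma gave 1, 4, 4 and 1 members at stages 1 to 4, 9 for the mean difference, 4 for the F test, 1 for the interaction at stage 4 and 4 for that at stage 3, of 64 each. Of 37593 probesets, the same threshold took 1624, 1868, 2667 and 1687 at stages 1 to 4, 3015 for the mean difference, 2032 for the F test, 1857 for the interaction at stage 4 and 1365 for that at stage 3.

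The arrays bounded the differences between lines more tightly for the level than for the change. For the mean over the stages, the log2 difference of HiPro from LoPro ranged from −0.32 to 0.43 among 63 members and was 1.02 for the tubby-like member. The 95% interval lay wholly within 1.5-fold in either direction for 60 of 64 members, unadjusted for their number. HiPro was lower for 43 members and higher for 21, with a median of −0.05, against −0.01 over all probesets. At stages 1 to 4 it was lower for 32, 30, 47 and 37 of 64 members. Such counts were not made over all probesets. The members came more often from LoPro lists than from HiPro lists, so nothing is read from these counts. For the change from stage 1 to 4, the difference ranged from −0.64 to 0.48 without the tubby-like member, and the interval lay within 1.5-fold for 23 members and not for 41, so that a difference of that size was not bounded for most members.

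The 4 members with an interval of the mean difference beyond 1.5-fold were the tubby-like, the UBC20-like S1, the AT3G09760-like and the vacuolar sorting receptor 7-like probesets. For the tubby-like probeset the mean difference was 1.02 (95% interval 0.38 to 1.67, unadjusted p = 0.00343, adjusted p = 0.312), the difference at stage 4 was 2.17 (adjusted p = 0.606), and the difference in change was 1.84 (95% interval 0.02 to 3.66, adjusted p = 0.9997). With signals under the 10th percentile set to it, these were 0.62 (95% interval 0.16 to 1.09), 0.79 (−0.15 to 1.73) and 0.46 (−0.87 to 1.79). The UBC20-like S1 probeset was higher in HiPro by 0.43 on average (95% interval 0.13 to 0.72, adjusted p = 0.374), and the arrays of the lines overlapped at every stage. For the E1 probeset the mean difference was 0.06 (95% interval −0.17 to 0.28), and the decline was steeper in HiPro by 0.50 on the log2 scale (95% interval of the difference −1.13 to 0.13, adjusted p = 0.9997).

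**Figure D3:**
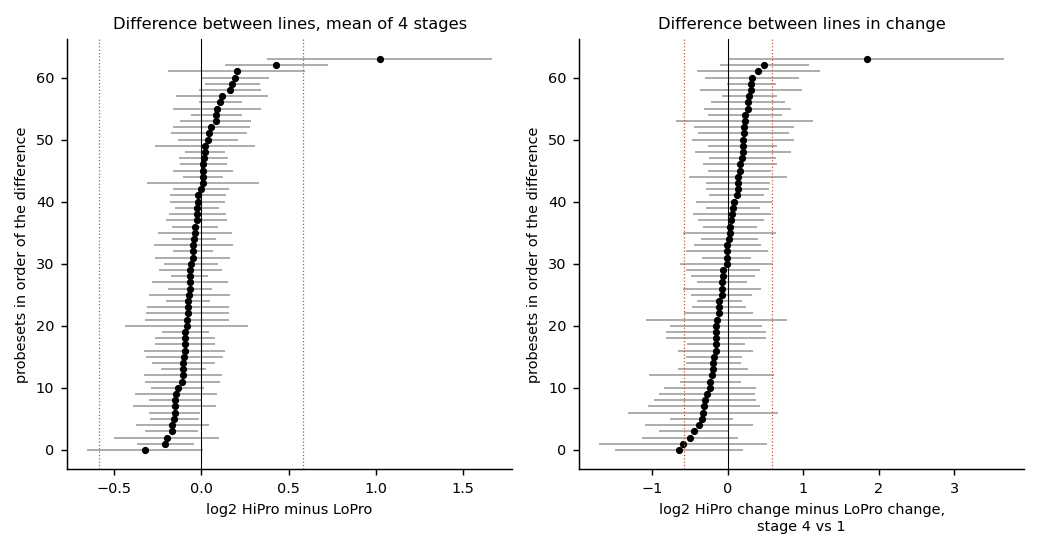
Left, log2 difference of HiPro from LoPro averaged over the 4 stages (horizontal axis) for each of the 64 members with its 95% interval, ordered by value (vertical axis), with dotted lines at 1.5-fold. Right, the difference between the lines in the change from stage 1 to stage 4, drawn in the same way. In the left panel all points but the tubby-like member lie between −0.32 and 0.43, and 60 intervals stay between the dotted lines. In the right panel 23 intervals do.

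A list of ubiquitin system genes taken by symbol, and not through the study's lists of changed transcripts, is set beside the members without a test of the difference. It holds 25 probesets of 12 symbols from the platform annotation, with polyubiquitin, E2 enzymes, F-box hormone and light receptors, a SUMO ligase and activators of the anaphase-promoting complex. The symbols were chosen with earlier results of these data known. The list has no E1 and no proteasome gene, so its make-up is unlike that of the members. From stage 1 to 4, 1 increased and 3 decreased in LoPro and 2 increased and 5 decreased in HiPro, beside the 11.2%, 10.5%, 10.6% and 13.6% of all probesets given above. Its median log2 changes were −0.07 and −0.29. The polyubiquitin gene SUBI-1 rose by 0.60 (adjusted p = 0.00262) in LoPro and 0.64 (adjusted p = 0.00126) in HiPro in one probeset, while a second gave 0.58 and 0.62, of which only the HiPro value passed 1.5-fold, and the third 0.14 and 0.38, which did not pass. With quantile normalization 0 of these passed as increased in either line.

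Both probesets of CCS52, an activator of the anaphase-promoting complex, fell in both lines. The UBC20-like E2 fell as well, and a link between them was not tested. The log2 changes in LoPro were −3.35 (SE 0.38, adjusted p = 1.85e-06) and −2.37 (SE 0.22, adjusted p = 2.03e-07). Those in HiPro were −3.71 (SE 0.38, adjusted p = 4.35e-07) and −2.53 (SE 0.22, adjusted p = 7.43e-08). Of 6 probesets for COI1, the F-box receptor of jasmonate, 1 fell in LoPro and 3 in HiPro. The auxin receptors TIR1C and AFB3B had log2 values between −0.59 and −0.21 that were not called in either line. TIR1C missed only the 1.5-fold threshold (limma adjusted p = 0.00209 in LoPro and 0.00128 in HiPro). So did an AFB3B probeset (0.00233 and 0.00973), while the other AFB3B probeset had adjusted p of 0.55 and 0.0691. CDC48, which pulls ubiquitinated proteins out of complexes, gave 0.08 and 0.13, and the SUMO ligase SIZ1B gave −0.06 and 0.13, none of them called.

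**Figure D4:**
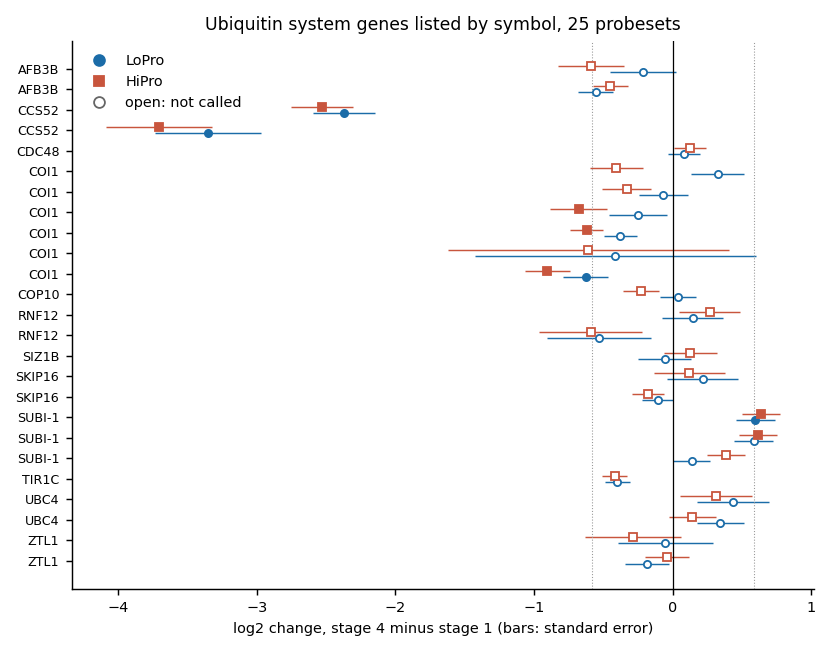
Log2 change from stage 1 to stage 4 (horizontal axis) of the 25 probesets of the list taken by symbol, in LoPro and HiPro, with bars of 1 SE, dotted lines at 1.5-fold and open symbols where the change was not called. Only the CCS52 probesets lie beyond −2, and 1 SUBI-1 probeset passed as increased in both lines.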

How the data were processed

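Total RNA of pooled seed was labelled with biotin and hybridised to the Affymetrix Soy GeneChip, 1 array per sample. The deposited intensity values are MAS5 signals per probeset, which per the labels the authors summarised and scaled with MAS5 (version not given in the sources used here). The study's own tests used RMA values, not analysed here. Probe intensities have no read depth, and the number of arrays limits the precision.

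Signals were taken to log2 without a floor, and 8 means of line and stage were fitted with limma 3.58.1 in R 4.3.3 (lmFit, eBayes with an intensity trend, 16 residual degrees of freedom) over 37593 soybean probesets. A further 170 control and rRNA probesets were left out. A call needed a Benjamini-Hochberg adjusted p under 0.05 over all probesets and a 1.5-fold change, and the F test over the 4 line differences needed the p alone. SE is the standard error of the fitted log2 difference, and intervals cover 95% without adjustment for their number. The fit was tested on simulated data. Groups came from the labels.

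Members, classes and lists were chosen with earlier results of these data known. Named are all E1, E2, modifier, deubiquitinase, HECT, cullin and proteasome members, the 4 RING and F-box members in each direction with the largest change among those called in both lines, and probesets of a shared gene. Others are said to be named after their values were seen. The symbol list replaced a search by title, since the platform annotation has no titles, and 3 probesets with several genes were not named in it.

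A replicate is a pool sampled at all stages, which per the study's methods pairs the stages of a line. Deviations of arrays from the same pool correlated at 0.10 on average (36 pairs, −0.01 to 0.29), and those of other arrays from different groups at −0.04 (168 pairs). Alternatives were quantile normalization, centring on array medians, a floor at the 10th percentile of signal, dropping the dimmest 30% of probesets by mean signal, the methods' t-test, the replicate block, members from the shared description columns alone, and leaving out arrays or pools.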

Additional observations from a re-analysis of the deposited data

How the results depend on the processing

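The calls between stages 1 and 4 depended less on the processing than those between stages 1 and 3. With quantile normalization 34 members increased from stage 1 to 3 in HiPro and with centring on array medians 35, against 21. The methods' t-test on the same values, after Benjamini-Hochberg, called 25 members increased from stage 1 to 4 in LoPro, and from stage 1 to 3 it called 2 increased and 0 decreased in LoPro and 6 increased and 3 decreased in HiPro. Unadjusted, at the same thresholds, those stage 3 counts were 32 and 9 in LoPro and 21 and 8 in HiPro. With the members of the shared description columns alone, 5 decreased at stage 4 in LoPro, 5 at stage 3 in LoPro, 5 at stage 4 in HiPro and 4 at stage 3 in HiPro, against 9, 9, 9 and 8, since fewer members are counted. Over 30 settings that left out an array, or a pool at all stages, increased members ranged from 37 to 43 (stage 4, LoPro), 40 to 45 (stage 4, HiPro), 21 to 31 (stage 3, LoPro) and 16 to 25 (stage 3, HiPro). Decreased members ranged from 8 to 9, 9 to 9, 7 to 9 and 5 to 9 in that order, the 5 being without HiPro replicate 2. The counts of members that differed between lines were 0 to 0 for the F test and for the interaction in all of these settings.

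With the pool as a replicate block, 42 members increased and 9 decreased at stage 4 in LoPro and 45 and 9 in HiPro, as without it, and it changed no other call among the named values. The study grew the lines in staggered pairs, but the sources used here do not tie a replicate number to such a pair. Arrays of the same number in the other line correlated at 0.08 on average (48 pairs, −0.06 to 0.22), close to the same pool and above other pairs, and this number as a block moved the F test count over all probesets from 27 to 48, with 0 members either way. Of 84 values of named members, 84 kept direction and call with the floor and with the block, 81 with quantile normalization, 80 with centring and 63 with the methods' t-test, and 0 reversed. Of the 64 members, 61 stayed in when the lowest 30% of mean signal was left out, and 78 of 78 values kept their call. The RPN1a-like change in HiPro ranged from −0.08 to 0.68 when arrays or pools were left out. Centring on array medians moved the median change of all probesets in HiPro from −0.01 to 0.12. Signals near the background, as in the tubby-like member at stage 4, limit what can be said of its level.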
